A study of Mus musculus with 3 samples.

Results

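Peaks of accessible chromatin were examined at 10 imprinted genes of the mouse: H19, Igf2, Kcnq1ot1, Peg3, Mest, Snrpn, Meg3, Dlk1, Igf2r and Airn. A peak was taken when its midpoint lay inside the body of one of these genes or within 20 kb of it, which gave 88 peaks of the 245531 in 3 lists. Overlapping peaks of the lists were merged, and the 88 peaks formed 47 of the 130664 regions covered by any list. The choice of peaks at these genes used position only and no measured value. The genes and rules themselves were set with earlier results of these data known.

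The peaks came from ATAC-seq, in which the Tn5 transposase inserts sequencing adapters into open DNA, in mouse embryonic stem cells of CGR8 origin. The line SES4.1 carried a doxycycline-inducible Halo-Sox2 and received 300 ng/mL doxycycline for 20 h. The line SES5.1 carried an inducible Halo-Sox2a, a form of the pluripotency factor that is named but not described in the labels, and received 70 ng/mL for 20 h. The line SES11 served as the control, and its labels name no transgene. Both transgenic lines were stained with 50 nM of a fluorescent Halo ligand and sorted through a common intensity gate, whereas the labels give neither a doxycycline dose nor staining or sorting for the control. All 3 lines grew in serum with LIF, 3 µM CHIR99021 and 0.8 µM PD184352, inhibitors of GSK3 and MEK. The labels do not say whether each line is a clone.

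With 1 library in each group, no difference below has a replicate check, and none was tested. The depth of the libraries is unknown. The lists held 88898 peaks (Halo-Sox2), 83995 (Halo-Sox2a) and 72638 (control), with a lowest score of 13 in each. To set the unequal lengths aside, the 2 longer lists were also reduced to the size of the control list by leaving out their lowest scores. Peak scores are the authors' own and have no common scale between lists. They are therefore given with the score percentile, the share of a list's peaks with a lower score, with ties weighted by 0.5. Where 3 values stand together, their order is Halo-Sox2, Halo-Sox2a, control. Of 7 marker genes of embryonic stem cells, 5 had a Halo-Sox2 peak in the gene or within 1 kb (not Nanog and Tdgf1), 7 had a Halo-Sox2a peak and 6 a control peak (not Pou5f1). All 12 markers of primitive endoderm, trophoblast, neural cells and mesendoderm also had one in every list, so these peaks did not separate cell types.

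Imprinted genes are expressed from a single parental copy, because a control region of DNA was methylated in only the egg or only the sperm. In the egg-methylated group the control region lies at the promoter of the paternally expressed Kcnq1ot1, Peg3, Mest, Snrpn or Airn. In the sperm-methylated group it lies between genes, upstream of H19 and between Dlk1 and Meg3. The zinc-finger protein ZFP57 binds methylated TGCCGC in such regions and keeps the methylation through early development, and CTCF binds the unmethylated control region of H19. The peak lists do not separate the parental copies, so a peak may come from either.

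Sequences of 300 bases around annotated start sites (250 upstream, 50 downstream) were at hand in RefSeq, build GRCm38.p6, for 9 of the 10 genes, with 18 windows in all. The 6 windows shown are those of 2 genes whose start was covered in every list (Kcnq1ot1 and Igf2r) and 4 that hold TGCCGC on either strand, which is set in capitals (Mest, Snrpn, Igf2 and Meg3). Each reads 5′ to 3′ on the strand of the gene.
Kcnq1ot1 (chr7:143296498-143296797, minus strand): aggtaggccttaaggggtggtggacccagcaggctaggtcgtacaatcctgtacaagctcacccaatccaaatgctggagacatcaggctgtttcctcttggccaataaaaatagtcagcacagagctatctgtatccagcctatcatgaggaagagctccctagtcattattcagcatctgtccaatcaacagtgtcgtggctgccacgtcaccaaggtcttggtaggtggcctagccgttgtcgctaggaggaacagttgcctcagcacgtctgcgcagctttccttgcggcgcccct
Igf2r (chr17:12769657-12769956, minus strand): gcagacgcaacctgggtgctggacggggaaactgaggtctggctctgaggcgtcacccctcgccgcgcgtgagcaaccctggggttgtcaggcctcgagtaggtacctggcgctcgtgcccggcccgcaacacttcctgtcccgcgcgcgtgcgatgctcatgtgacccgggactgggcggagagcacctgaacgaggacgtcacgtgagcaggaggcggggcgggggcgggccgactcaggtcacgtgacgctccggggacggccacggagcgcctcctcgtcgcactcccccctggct
Mest (chr6:30737800-30738099, plus strand): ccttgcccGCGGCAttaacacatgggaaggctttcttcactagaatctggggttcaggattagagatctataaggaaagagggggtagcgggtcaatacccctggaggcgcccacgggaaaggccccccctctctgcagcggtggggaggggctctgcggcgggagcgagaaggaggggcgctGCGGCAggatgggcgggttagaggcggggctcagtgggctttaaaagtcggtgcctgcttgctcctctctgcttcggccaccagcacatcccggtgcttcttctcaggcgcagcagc
Snrpn (chr7:60005150-60005449, minus strand): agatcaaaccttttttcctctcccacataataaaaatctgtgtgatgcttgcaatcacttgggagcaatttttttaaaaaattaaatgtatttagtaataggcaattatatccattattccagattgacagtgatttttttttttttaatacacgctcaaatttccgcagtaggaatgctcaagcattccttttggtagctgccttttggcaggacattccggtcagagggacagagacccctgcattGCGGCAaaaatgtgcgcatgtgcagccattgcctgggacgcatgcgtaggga
Igf2 (chr7:142661222-142661521, minus strand): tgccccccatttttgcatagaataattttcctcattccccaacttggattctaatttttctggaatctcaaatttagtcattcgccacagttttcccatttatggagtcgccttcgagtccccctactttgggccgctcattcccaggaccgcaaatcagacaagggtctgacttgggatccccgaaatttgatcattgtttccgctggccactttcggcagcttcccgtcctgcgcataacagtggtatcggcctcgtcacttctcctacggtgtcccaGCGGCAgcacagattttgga
Meg3 (chr12:109540746-109541045, plus strand): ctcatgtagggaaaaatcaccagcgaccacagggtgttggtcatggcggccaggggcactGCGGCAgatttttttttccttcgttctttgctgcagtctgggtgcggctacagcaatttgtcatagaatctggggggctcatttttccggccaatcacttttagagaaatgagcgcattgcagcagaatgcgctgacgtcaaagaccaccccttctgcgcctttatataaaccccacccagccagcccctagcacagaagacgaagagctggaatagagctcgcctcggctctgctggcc

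TGCCGC or its complement was found in 5 of the 18 windows, of which 2 are overlapping windows of Mest that share their matches, against 11.6% of all 32851 start windows. GGNGGCAG, part of the CTCF motif, was in 1 window (Igf2, chr7:142658755-142659054) against 12.6% of all windows. CATTGT, bound by SOX proteins, was also in 1 window (the Igf2 window shown) against 12.6% of all windows. No match of a motif overlapped a match of another in these windows. The Igf2r window had 34 CpG dinucleotides and 70.7% G and C, against medians of 7 and 52.7% over all start windows. The Kcnq1ot1 window had 9 CpG and 53.3%, the Mest window shown 17 and 62.7%, and the Snrpn window shown 7 and 40.3%.

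A start window under a peak of at least 1 list was found for 7 of the 9 genes, all but Mest and Meg3. The share of all genes with such a window was not counted, and the shares below are per window and per list. A Halo-Sox2 peak overlapped 6 of the 18 windows (33.3%, exact 95% binomial interval 13.3 to 59.0%), against 45.8% of all start windows. A Halo-Sox2a peak overlapped 6 (33.3%), against 46.5%, and a control peak overlapped 4 (22.2%, 6.41 to 47.6%), against 45.6%. These intervals cover counting error only and include the share over all windows, and windows of a gene are not independent. The start windows of Kcnq1ot1 and Igf2r were overlapped in all 3 lists. Those of Peg3, of Snrpn (the window shown) and of Igf2 (chr7:142658755-142659054) were overlapped in both transgene lists and not in the control list. The share of all windows with either of these patterns was not counted. At Snrpn the transgene peaks only just reached the window, ending 43 (Halo-Sox2) and 36 bp (Halo-Sox2a) downstream of the start site. At Igf2 a control peak lay just outside the window, its edge 308 bp from the start site. The Dlk1 window was missed in the Halo-Sox2a list, by a peak whose edge lay 52 bp from the start site, and the Airn window was missed in the Halo-Sox2 list.

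**Figure D1:**
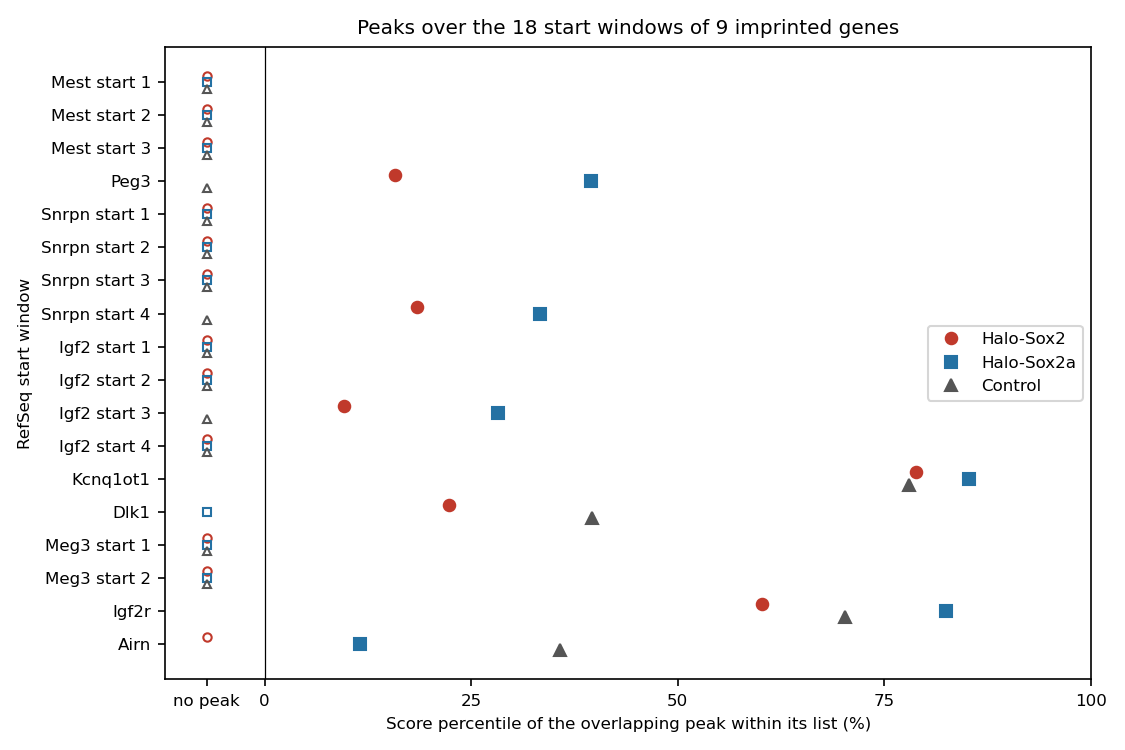
Score percentile, within its own list, of the highest peak overlapping each of the 18 RefSeq start windows (300 bases each) of 9 imprinted genes, with open symbols at the left where a list has no overlapping peak. The Kcnq1ot1 and Igf2r windows carry a peak in all 3 lists, and the windows of Mest and Meg3 carry none.

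Among the egg-methylated loci, Kcnq1ot1, a long non-coding RNA that silences its neighbours in cis, had the most even start site. The region over it (chr7:143296114-143297127, 1014 bp) had scores of 363, 307 and 178, at percentiles 78.8, 85.3 and 77.9 (ranks 18746, 12360 and 15981). It was the only Halo-Sox2a peak of the locus. The Halo-Sox2 list added 3 regions of its own, and the highest lay 18.2 kb upstream of the start, inside Kcnq1 and outside the Kcnq1ot1 body (chr7:143314278-143315227, 950 bp), with a score of 460 at percentile 85.5 (rank 12901). That region thus ranked above the Kcnq1ot1 start in the same list and was absent from both other lists. The other 2 Halo-Sox2 regions lay at percentiles 4.33 and 7.94. The control list had 2 regions of its own in the body of Kcnq1ot1, at percentiles 8.73 and 41.3. The locus had 6 regions. Over all regions, 24.3% were of Halo-Sox2 alone and 10.2% of the control alone. Regions of a gene are not independent, and no difference from these shares was tested. Kcnq1 overlaps this locus on the other strand, and the lists do not say from which gene the accessibility comes.

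Peg3, a zinc-finger protein gene, had 6 regions. Inside the gene, a wide region 2.32 kb downstream of the start (chr7:6727233-6728975, 1743 bp) was held by all 3 lists at percentiles 72.1, 78.2 and 71.2 (scores 291, 234 and 145). At the start itself, which Peg3 shares with the oppositely directed Usp29, a region of 267 bp (chr7:6730298-6730564) was found at percentile 15.8 with Halo-Sox2 and 39.5 with Halo-Sox2a. The control list had no peak there, and its nearest peak edge lay 672 bp from the start site. With lists of equal size the region was left with its Halo-Sox2a peak only. The highest region of all 47 also lay in the Peg3 window, at the start of the neighbouring imprinted gene Zim1 (chr7:6696048-6696978). Its scores were 702, 641 and 500, at percentiles 94.2, 97.6 and 98.2 (ranks 5125, 2050 and 1318). Accessibility of the Zim1 start was therefore near the top of every list, and at the Peg3 start it was in the lower part of the lists that held it.

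Mest, a gene of the hydrolase family, had peaks in the Halo-Sox2a list only. These were 2 weak peaks, 1 upstream of the gene (chr6:30732730-30732969, score 40, percentile 17.3, rank 67853) and 1 inside it (chr6:30738112-30738643, score 36, percentile 14.4, rank 71790). The inner peak began 62 bp downstream of the start site of the Mest window shown, which holds 2 matches of TGCCGC. In the Halo-Sox2 and control lists no peak lay within 20 kb of Mest, and the nearest peak edges were 44088 and 44135 bp from that start site. Both Mest peaks remained when the lists were reduced to equal size. Over all regions, 12.2% were of Halo-Sox2a alone. The 2 Mest regions are not independent, and their difference from that share was not tested.

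Snrpn, which encodes a protein of the spliceosome, had 7 regions, 3 of them in all lists. A region 1.99 kb downstream of the most downstream of its annotated starts (chr7:60002739-60003686, 948 bp) was at percentile 61.1 with Halo-Sox2, 77.6 with Halo-Sox2a and 31.8 in the control (scores 205, 230 and 52). The percentile was thus 29.2 points above the control for Halo-Sox2 and 45.8 points above it for Halo-Sox2a, the highest Halo-Sox2a difference among the 15 shared regions. Next to it, the region reaching into the start window (chr7:60004055-60005163) was held by both transgene lists and not by the control. The peak that reached the window was at percentile 18.5 with Halo-Sox2 and 33.3 with Halo-Sox2a, and a separate Halo-Sox2a peak of the region was at 39.7. The region on the upstream side of that start, centred at -1.27 kb (chr7:60006247-60006696), ran the other way, at percentiles 18.1, 25.9 and 49.5, and lost its Halo-Sox2 peak with lists of equal size. A region of Halo-Sox2 alone lay farther upstream, at -8.43 kb, with percentile 44.7. The windows of the 3 upstream starts of Snrpn carried no peak in any list. Snurf and Snhg14 overlap these regions, so they cannot be assigned to Snrpn alone.

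Airn is a non-coding RNA that starts inside Igf2r, runs in the opposite direction and silences it. Igf2r encodes the receptor that clears IGF2 from the cell surface. At the Igf2r start (chr17:12769047-12770124, 1078 bp) the scores were 202, 275 and 140, at percentiles 60.2, 82.5 and 70.2 (ranks 35336, 14684 and 21582). At the Airn start (chr17:12741262-12741794) a Halo-Sox2a peak was present at percentile 11.5 and a control peak at percentile 35.8, whereas the Halo-Sox2 list had none. The adjoining region, 1.18 kb downstream (chr17:12741997-12742979), was in all lists at percentiles 4.33, 28.2 and 22.5. With lists of equal size the Airn start kept its control peak only, and the adjoining region lost its Halo-Sox2 peak. Around the Airn start, the Halo-Sox2 list was thus the lowest of the 3, as it was at the Igf2r start. The Halo-Sox2 percentile was below the control in 64% of all shared regions, so that part of the order is not particular to the locus. The share of regions with Halo-Sox2 the lowest of the 3 lists was not counted.

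The body of Airn outside Igf2r held 3 regions, and none of them was in the control list. A missing control peak was also frequent in the whole set of regions. There, 24.3% had Halo-Sox2 as their sole list, 12.2% had Halo-Sox2a as theirs, and 8.95% had the transgene pair. Regions of a gene are not independent, and a difference between the body and the start of Airn was not tested. The highest of the 3 regions was in the Halo-Sox2 list alone (chr17:12793740-12794802, 1063 bp), with a score of 459 at percentile 85.4 (rank 12939). The other 2 were shared by the transgene lists, at percentiles 69.9 and 69.2 (chr17:12802114-12802833) and 35.4 and 46.5 (chr17:12810417-12810893) for Halo-Sox2 and Halo-Sox2a. A region 10.2 kb beyond the end of Airn, outside annotated genes (chr17:12869559-12870526), was in all lists with scores of 530, 360 and 78, at percentiles 88.8, 88.9 and 48.1. Its percentile was 40.7 points above the control for Halo-Sox2 and 40.8 points above it for Halo-Sox2a. Of the 15 regions held by all lists, only this one and the Snrpn region at 1.99 kb stood at least 10 points above the control in both transgene lists. Of all shared regions, 20% did so with Halo-Sox2 and 29.9% with Halo-Sox2a, and the share that did so in both was not counted.

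Among the sperm-methylated loci, H19, an abundant non-coding RNA of the embryo, had no peak in any list. Its window of 20 kb to either side also covers the control region upstream of the gene. The nearest peaks by midpoint lay 33.0 to 33.1 kb away toward Igf2 (chr7:142610823-142611548 over the 3 lists, in Gm33148), at percentiles 28.0, 61.6 and 43.1. On the other side the nearest lay 37.4 to 37.5 kb away, in Mrpl23, at percentiles 6.54, 40.2 and 57.9. Of all 12727 long non-coding RNA genes in the table, 8.27% had no peak of any list within 20 kb, and of all genes 14.7%.

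Igf2, the growth factor gene beside H19, had only weak peaks, none above percentile 33.5. The lists held 3 (Halo-Sox2), 2 (Halo-Sox2a) and 4 (control) of them. A region just upstream of the third of its 4 annotated starts in gene order (chr7:142658874-142660117) was in all lists, its nearest peak edges 144, 70 and 308 bp from the start site, at percentiles 9.65, 28.2 and 25.6, and the neighbouring one (chr7:142660215-142661059) at 22.5, 28.2 and 19.2. The Halo-Sox2 peak of the former region scored 42 and stood at rank 80233, so it was lost with lists of equal size. The antisense gene Igf2os overlaps the regions.

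Dlk1, which encodes a membrane protein of the Notch ligand family, had 2 regions, both in all lists. The one over its start (chr12:109452792-109453942, 1151 bp) was at percentiles 22.3, 28.2 and 39.6. The one 14.9 kb upstream (chr12:109437647-109438234) was at 44.7, 46.5 and 41.3. No list had a peak at Dlk1 that was missing from another.

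Meg3, the maternally expressed non-coding RNA downstream of Dlk1, had 10 regions, and 5 of them were of Halo-Sox2 alone, against 24.3% of all regions. Regions of a gene are not independent, and the difference was not tested. Of the 5 regions of Halo-Sox2 alone, 4 lay inside the gene, and the highest (chr12:109559876-109560684, 809 bp) had a score of 587 at percentile 90.9 (rank 8036). The others inside the gene were at percentiles 53.6, 52.5 and 37.1, all downstream of both annotated starts. The only Meg3 region inside the gene in all lists (chr12:109542770-109543665, 896 bp) had scores of 74, 167 and 86 at percentiles 25.8, 67.9 and 51.2, a difference from the control of -25.4 points with Halo-Sox2 and of 16.7 points with Halo-Sox2a. Neither start window of Meg3 was overlapped by a peak, and the nearest peak edges to the upstream start were 1850, 1587 and 1774 bp away.

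Between Dlk1 and Meg3, where the control region of this cluster lies, 5 weak regions were found within 20 kb upstream of Meg3. The only one in all lists (chr12:109528893-109529264, 372 bp) was 11.9 kb upstream, at percentiles 13.6, 25.3 and 48.9. Its difference from the control was -35.4 points with Halo-Sox2, the lowest among the 15 shared regions, and -23.6 points with Halo-Sox2a. With lists of equal size the Halo-Sox2 peak was lost, and the former difference with it. The other 4 were each in a single list, at percentile 35.7 or lower.

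**Figure D2:**
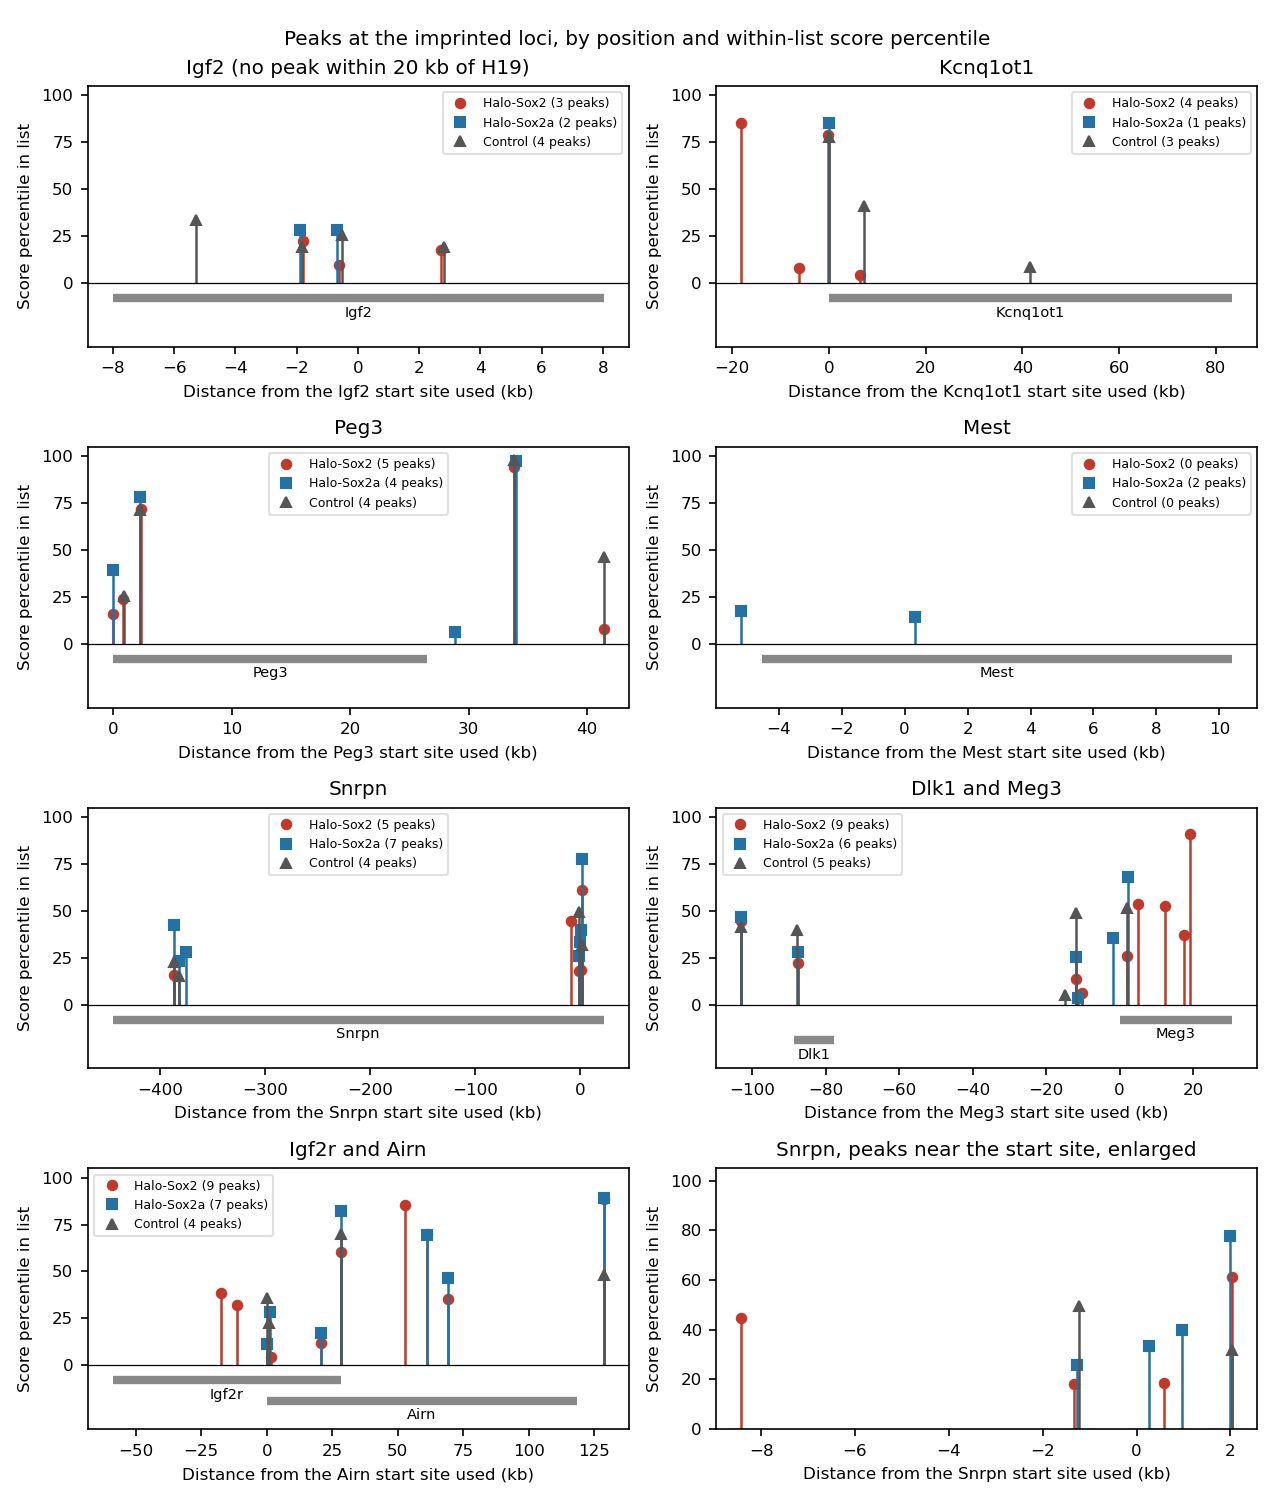
Position of each peak midpoint relative to an annotated start site of the named gene, positive in the direction of its transcription (horizontal, kb), against the score percentile within the peak's list (vertical), with gene bodies as grey bars and the peaks near the Snrpn start enlarged in the last panel. Peaks of Halo-Sox2 alone reach percentiles 90.9 in Meg3, 85.5 upstream of Kcnq1ot1 and 85.4 in Airn, and Mest has peaks in the Halo-Sox2a list only.

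Counted over all 10 genes, the Halo-Sox2 list held 35 peaks, the Halo-Sox2a list 29 and the control list 24. No control peak was found for 18 of the 35 Halo-Sox2 peaks (51.4%, exact 95% interval 34.0 to 68.6%), against 49.3% of all peaks of that list. For Halo-Sox2a it was 12 of 29 (41.4%, 23.5 to 61.1%), against 33.4%. Of the 24 control peaks, 7 (29.2%, 12.6 to 51.1%) had no Halo-Sox2 peak, against 37.5%, and 7 had no Halo-Sox2a peak, against 22%. Between the transgene lists, 15 of 35 Halo-Sox2 peaks had no Halo-Sox2a peak (42.9%, against 38.7%), and 8 of 29 Halo-Sox2a peaks had no Halo-Sox2 peak (27.6%, against 35.4%). Each share over all peaks lay within the counting interval of the imprinted loci. These intervals are wide and peaks of a gene are not independent, so they cannot show how near the loci were to the background. Both comparisons with the control use the same control library.

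By region, 15 of the 47 (31.9%) were in all lists, against 32.1% of all regions. There were 12 regions found with Halo-Sox2 only (25.5%, against 24.3%), 6 with Halo-Sox2a only (12.8%, against 12.2%) and 4 in the control only (8.51%, against 10.2%). Both transgene lists without the control held 5 (10.6%, against 8.95%). The Halo-Sox2 and control lists shared 3 (6.38%, 1.34 to 17.5%, against 1.9%), at Igf2 and at Peg3, and the Halo-Sox2a and control lists shared 2 (4.26%, against 10.3%). The class shares of all regions lay within the counting intervals. With lists of equal size, regions of the control alone made up 16.7%, those of Halo-Sox2 with the control 2.38% and those of Halo-Sox2a with the control 14.3%. Shares over all regions were not counted with lists of equal size, so these values cannot be set against the shares above.

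**Figure D3:**
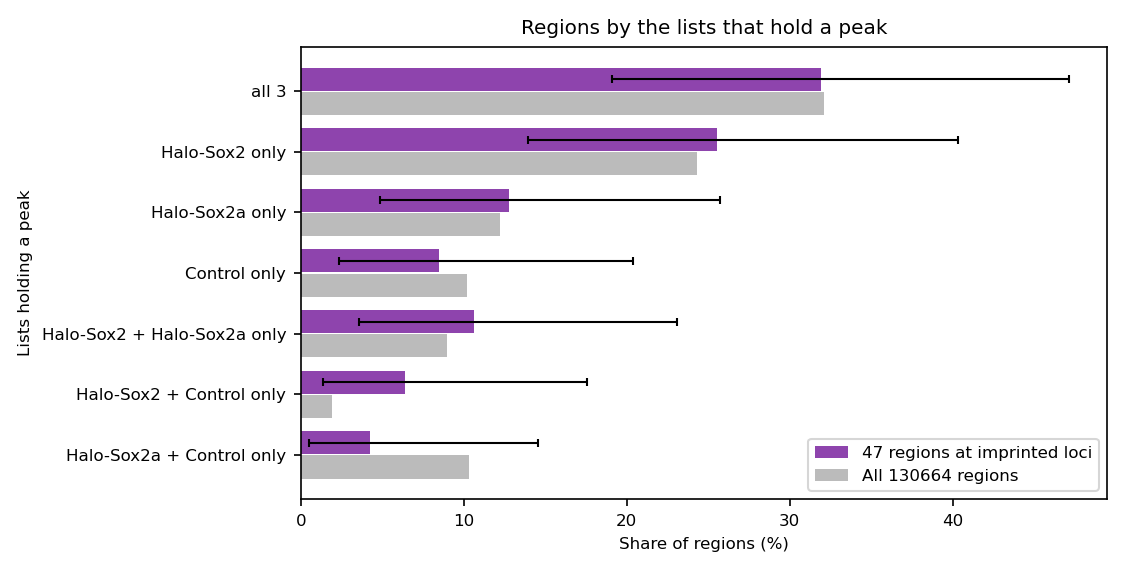
Share of regions (horizontal, %) by the lists holding a peak there, for the 47 regions at imprinted loci (purple, with exact 95% binomial intervals for counting error) and for all 130664 regions (grey). The all-region share lies within the interval in each of the 7 classes.

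More of the peaks stood below than above the middle of their list. The median percentile was 31.9 with Halo-Sox2 (95% interval from order statistics, 18.1 to 52.5), 33.3 with Halo-Sox2a (25.9 to 46.5) and 37.7 in the control (22.5 to 48.9), where a whole list has 50. The Halo-Sox2 interval includes 50. Because peaks of a gene are not independent, the intervals cover counting error only. They cannot show that a list differs from 50. Peaks under percentile 50 made up 23 of 35, 21 of 29 and 19 of 24. In the 15 regions held by all lists, the highest of the 3 percentiles had a median of 49.5, against 79.2 over all 41984 such regions, with a median width of 948 bp, against 843 bp. Only 2 of the 15, at the starts of Kcnq1ot1 and Zim1, were above percentile 75 in every list. Among the 12 regions of Halo-Sox2 alone the median was 41.7, against 38.7 over all regions of that class.

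Of the 32 regions missing from at least 1 list, 3 lay above percentile 75 in a list that held them, in Meg3, upstream of Kcnq1ot1 and in Airn, and all 3 were of Halo-Sox2 alone. Over all regions, 45.7% of the 9872 regions that met both conditions were of Halo-Sox2 alone, and 36.2% were of both transgene lists. At the further imprinted genes described below, 16 regions met both conditions. Of these 16, 4 (25%) were of Halo-Sox2 alone and 10 (62.5%) of both transgene lists.

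In the 15 shared regions, the Halo-Sox2 percentile was above the control in 6 (40%, exact interval 16.3 to 67.7%), against 36% of all shared regions, and below it in 9, against 64%. The Halo-Sox2a percentile was above it in 11 (73.3%, 44.9 to 92.2%), against 57.5%, and below it in 4, against 42.5%. At least 10 points above the control were 2 regions with Halo-Sox2, against 20% of all shared regions, and 5 with Halo-Sox2a, against 29.9%. At least 10 points below it were 7 with Halo-Sox2, against 39.9%, and 3 with Halo-Sox2a, against 18.1%. The median difference from the control was -6.63 points for Halo-Sox2 (all shared regions, -5.22) and 6.95 points for Halo-Sox2a (all shared regions, 1.77). Each share over all shared regions lay within the counting interval of the 15, and the comparisons share the control library.

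**Figure D4:**
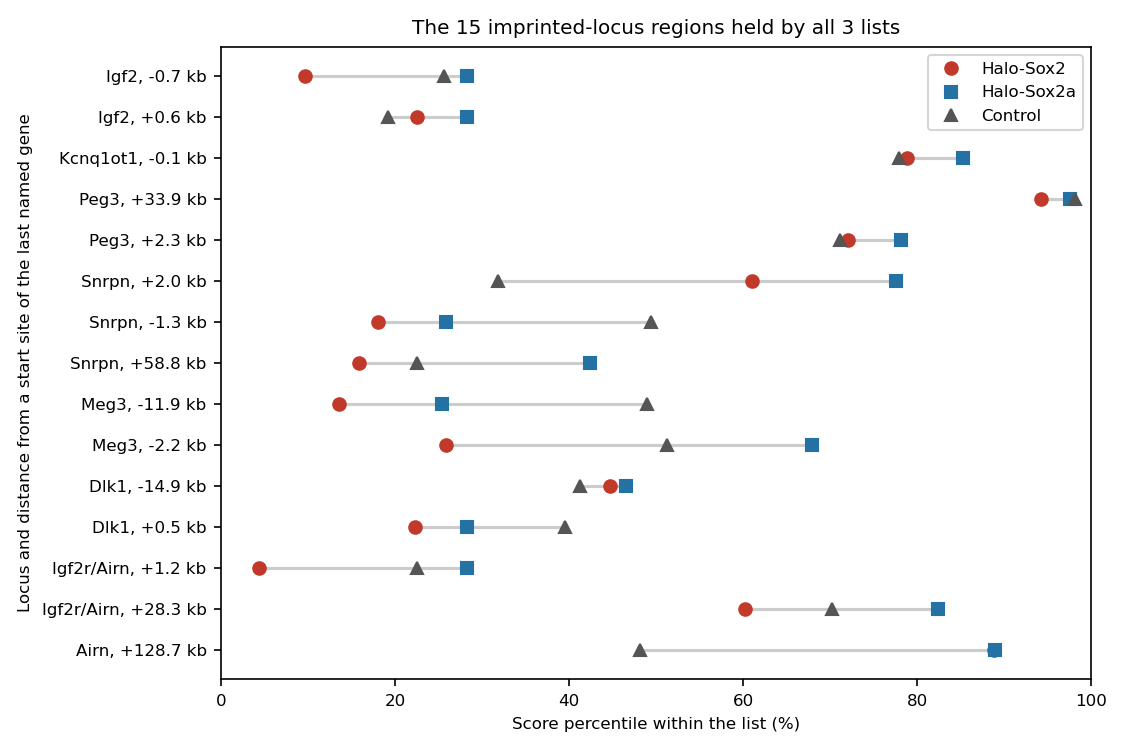
Score percentile within each list (horizontal, %) for the 15 regions of the imprinted loci held by all 3 lists, labelled by gene and by distance of the region midpoint from the nearest annotated start site of that gene, Airn where Igf2r and Airn share the region. Only the Snrpn region at 2.0 kb and the region beyond the end of Airn have the control at least 10 points to the left of both transgene lists. Regions at Igf2, Kcnq1ot1, Peg3 and Dlk1 also have the control at the left, by less.

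A further 46 imprinted genes, listed from general knowledge of imprinting, were examined with the same window, and 45 were found in the gene table by symbol. They added 302 regions, of which 115 (38.1%) were in all lists, 63 (20.9%) were found with Halo-Sox2 only, 34 (11.3%) with Halo-Sox2a only, 23 (7.62%) in the control only and 31 (10.3%) in both transgene lists without the control. A further 32 (10.6%) were in the Halo-Sox2a and control lists and 4 (1.32%) in the Halo-Sox2 and control lists. Over all regions the shares, in the order of these 7 classes, were 32.1, 24.3, 12.2, 10.2, 8.95, 10.3 and 1.9%. All 45 had at least 1 peak within 20 kb, unlike H19. Regions missing from a list and above percentile 90 in another numbered 8, and all 8 were in the Halo-Sox2 list and absent from the control list. Over all regions, 93.7% of the 2976 that met the same conditions were absent from the control.

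Of the 8, a region in Usp29, the neighbour of Peg3 (chr7:6813226-6814015), was at percentile 97.8 with Halo-Sox2 and 42.4 with Halo-Sox2a. Trappc9, which encodes a subunit of a trafficking complex, held a region at percentiles 97.8 and 86.2 (chr15:72659860-72660770) and another at 91.1 and 33.3 (chr15:72920603-72921306). Gnas, the gene of the stimulatory G protein subunit, held one at 93.5 and 40.4 (chr2:174311599-174312429). Slc38a4, an amino acid transporter gene, had one within 20 kb at 92.1 and 72.2 (chr15:97073022-97074155), and Plagl1, a zinc-finger gene, held one at 90.03 and 41.1 (chr10:13114969-13115440). Near Peg12 (chr7:62445582-62446134) and in Grb10, a growth factor receptor adaptor gene (chr11:11954911-11955928), regions of Halo-Sox2 alone reached percentiles 95.6 and 90.7.

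The limit of 20 kb cut through an accessible stretch beyond Airn. Just outside it, at 20.2 to 20.4 kb, lay peaks of all 3 lists at percentiles 7.94, 36.2 and 25.3. The peaks inside the limit and farthest from a gene were the Halo-Sox2 peak upstream of Kcnq1ot1 at 18.2 kb (percentile 85.5), a Halo-Sox2a peak at Dlk1 at 14.5 kb (46.5) and a control peak at Meg3 at 14.9 kb (5.09).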

How the data were processed

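Peak lists of 3 ATAC-seq libraries (75-bp reads per the labels) were used, 1 per group, grouped by the labels. The deposited lists hold positions, a name and a whole-number score. The authors' score has a scale not given in the sources used here and served only to rank peaks within a list. Per the submitters' processing notes, the build was mm10 and the tools STAR, SAMtools, MACS2 (3.0.0a7), MACS3 and deepTools (3.3.0), with no roles stated. Peak names carry 1 library each, so calling was per library. The file names state that blacklisted regions were removed.

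Positions were made 1-based, and gene bodies came from a RefSeq table of GRCm38.p6, which corresponds to mm10. Peaks were shared on an overlap of at least 1 bp. Python 3.11.15, pandas 2.3.3 and scipy 1.17.1 were used, and overlap and classing were checked on simulated peaks. Intervals are exact (Clopper-Pearson, 95%). A rank shift was counted from 10 percentile points. All 10 genes were described, with, at each, the region of highest mean percentile, those nearest a start and those missing from a list but above percentile 75 in another. Further imprinted genes were named from percentile 90. The genes, lists and rules were chosen with earlier results of these data known. Motifs within peaks were not searched, as no genome sequence was used here.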

Additional observations from a re-analysis of the deposited data

Results flagged for a closer look

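In 2 regions held by all 3 lists, the percentile moved at least 10 points away from the control in opposite directions in the transgene lists. This difference was not tested, since each group had 1 library. Of all shared regions, 39.9% stood at least 10 points below the control with Halo-Sox2. With Halo-Sox2a, 29.9% stood at least 10 points above it. The share of all shared regions that did both was not counted. The region inside Meg3 (chr12:109542770-109543665) stood at -25.4 points against the control in the Halo-Sox2 list and at 16.7 points in the Halo-Sox2a list. The region at the Igf2r start (chr17:12769047-12770124) stood at -10.002 points in the Halo-Sox2 list, barely past the limit, and at 12.3 points in the Halo-Sox2a list.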

How the results depend on the processing

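No paired analysis was possible because each group had 1 library. Of 164 values recomputed under 12 alternatives, 143 stayed within the counting interval, or within 1.5 times for counts. Of these, 16 shares still moved by over 1.5 times. An overlap of 50% of both peaks put 19.6% of regions in all lists, 45.8% of control peaks outside the Halo-Sox2 list, and 3.57% and 7.14% of regions in the control with Halo-Sox2 and with Halo-Sox2a. Regions of Halo-Sox2a alone made up 6.06% with gene bodies only, and a gap of up to 500 bp left 2.38% in Halo-Sox2a with the control. A window of 50 kb raised the peaks to 53 (Halo-Sox2), 44 (Halo-Sox2a) and 38 (control). Peaks above percentile 25 left 19 Halo-Sox2 peaks, put 52.9% of control peaks outside the Halo-Sox2 list and left 0% of regions shared by Halo-Sox2 and control alone. Peaks above percentile 50 left 12, 8 and 5 peaks, 0% of regions of Halo-Sox2a alone, of the control alone and of Halo-Sox2 with the control, and 0% of control peaks outside the Halo-Sox2a list. With lists of equal size, 23 Halo-Sox2 peaks remained, 54.2% of control peaks lay outside the Halo-Sox2 list, and shifts of at least 10 points numbered 4 below the control for Halo-Sox2, and 3 above and 1 below for Halo-Sox2a. Of the 47 regions, 32 kept their class then and 5 were in no list. A threshold of 5 points gave 10 Halo-Sox2a regions above the control, and 20 points gave 2, with 3 Halo-Sox2 regions below it. These stricter settings keep fewer peaks by construction, and shares over all regions or all peaks were not counted under the alternatives. The unknown depth limits every absent peak: it may lie under a list's threshold.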
